A study of Mus musculus with 10 samples.

Results

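DYRK1A is a protein kinase whose gene lies on human chromosome 21 (Hsa21) and is therefore present in 3 copies in Down syndrome. Dyrk1a and 7 related mouse kinase genes, Dyrk1b, Dyrk2, Dyrk3, Dyrk4, Hipk1, Hipk2 and Hipk3, were examined in the hippocampus of Dp5/Dp1 mice and of their control littermates. These 8 genes were chosen by name as DYRK and HIPK kinases, out of 19938 genes measured, and only Dyrk1a is triplicated in these mice. Each gene was read from its probe set with the highest mean among those annotated to a single symbol. Dyrk1a had 2 such probe sets and both were read, whereas the other 7 genes had 1 each.

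DYRK kinases phosphorylate a tyrosine of their own activation loop while they are being made, and afterwards phosphorylate serines and threonines of other proteins. DYRK1A acts on proteins of neuronal differentiation, the cell cycle, splicing and synaptic vesicle recycling, and on the microtubule protein tau, and both a loss and a gain of its gene impair cognition in humans and mice. HIPK kinases, named for their binding to homeodomain proteins, are close relatives that act mostly in the nucleus on transcription factors and corepressors.

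The 10 arrays came from 5 Dp5/Dp1 mice and 5 control littermates, all male and 16 weeks old. The labels place them on a C57BL/6N background, and C57BL/6J is named in the methods. Dp5/Dp1 mice are compound transheterozygotes that carry 2 segmental duplications of mouse chromosome 16, Dp5Yah (from Cyyr1 to Clic6) and Dp1Rhr (from Cbr1 to Fam3b). The labels give the controls the genotype WT, and they mark the control arrays as a reanalysis. The titles of the mutant arrays name only Dp5Yah beside the Dp5Dp1 model, and genes of both intervals were higher on them. Dp5Yah was made by recombination between loxP sites in App and Runx1. The genes of both intervals are triplicated together with Dyrk1a, except that the methods list Cyyr1 among genes not in 3 copies in Dp5/Dp1. Effects of Dyrk1a and of the other triplicated genes therefore cannot be told apart.

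All values are log2 expression after robust multi-array averaging (RMA) by the authors, and each difference, given with its standard error (SE), is Dp5/Dp1 less control. A gene is called, or said to have risen or fallen, where limma gave an adjusted p under 0.05 over all genes. Levels of different probe sets depend on their probes, so no order of levels between probe sets is read, and a gap between probe sets serves only to compare the groups. The labels give the tissue as hippocampus. Of 7 markers of its neurons (Prox1, Zbtb20, Neurod6, Wfs1, Fibcd1, Grik4, Bok), 0 were among the dimmest 40% of genes. The same held for 0 of 4 thalamus markers, so this does not tell the tissues apart. Markers of adjoining tissue varied between arrays and leaned by group. A higher mean in Dp5/Dp1 was found for 5 of 5 medial habenula, 0 of 7 choroid plexus and 1 of 4 thalamus markers, and limma called 0 of these. The mean of the thalamus markers ran from 9.13 to 9.68 in controls and from 8.71 to 9.26 in Dp5/Dp1. The mean of 7 choroid plexus markers ran from 7.10 to 9.13 in controls and from 7.15 to 8.77 in Dp5/Dp1, and that of 5 medial habenula markers from 7.00 to 7.75 and from 7.12 to 8.86, highest in Dp5/Dp1 replicates 2 (8.86) and 5 (8.13). Of 4 endothelial markers, Cldn5 (0.25 ± 0.07, adjusted p = 0.491) and Tek (0.22 ± 0.06, adjusted p = 0.620) had higher means in Dp5/Dp1 and Flt1 and Pecam1 lower means, and limma called 0. The part of these markers in the results below was not tested except where covariates or left-out arrays are named.

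Dyrk1a rose in Dp5/Dp1 and was the only called member. Its expression was 11.73, 11.69, 11.64, 11.64 and 11.56 in control replicates 1 to 5, and 11.89, 11.93, 11.95, 12.00 and 11.97 in Dp5/Dp1 replicates 1 to 5. Every Dp5/Dp1 array exceeded every control, with a gap between 11.73 and 11.89, as happened for 0.762% of all genes. The mean went from 11.65 ± 0.06 (SD, n = 5) to 11.95 ± 0.04, a log2 difference of 0.30 ± 0.04 (SE), or 1.23-fold, with a limma adjusted p of 0.00344. Its 95% interval, 0.22 to 0.38, lay wholly below log2 of 1.5 (0.58), the ratio of 3 gene copies to 2. The differences of the other called genes in the Dp1Rhr interval were also below 0.58, with 0.49 the highest. These are point values, and the 95% intervals of those genes were not all set against log2 of 1.5. Why the differences lay below it was not tested. Of all genes, 0.201% were called higher and 0.00502% lower, and the 1 member called of 8 is the triplicated gene. In whole tissue, more RNA per cell and more cells that express a gene cannot be told apart.

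The call of Dyrk1a was lost in 2 of 22 alternatives. With the replicate number as a block the difference was 0.30 and the adjusted p 0.0938. The labels do not say whether these numbers pair the mice. Without Dp5/Dp1 replicates 2 and 5, which had the highest habenula markers, the difference was 0.30 and the adjusted p 0.0548, with 3 arrays against 5. When the choroid plexus and habenula markers entered as covariates it was 0.30 (adjusted p = 0.0429). The alternative that tested every probe set was counted by the brighter of the 2 Dyrk1a probe sets. In that fit the dimmer was not called (0.095 ± 0.036, adjusted p = 0.818).

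**Figure D1:**
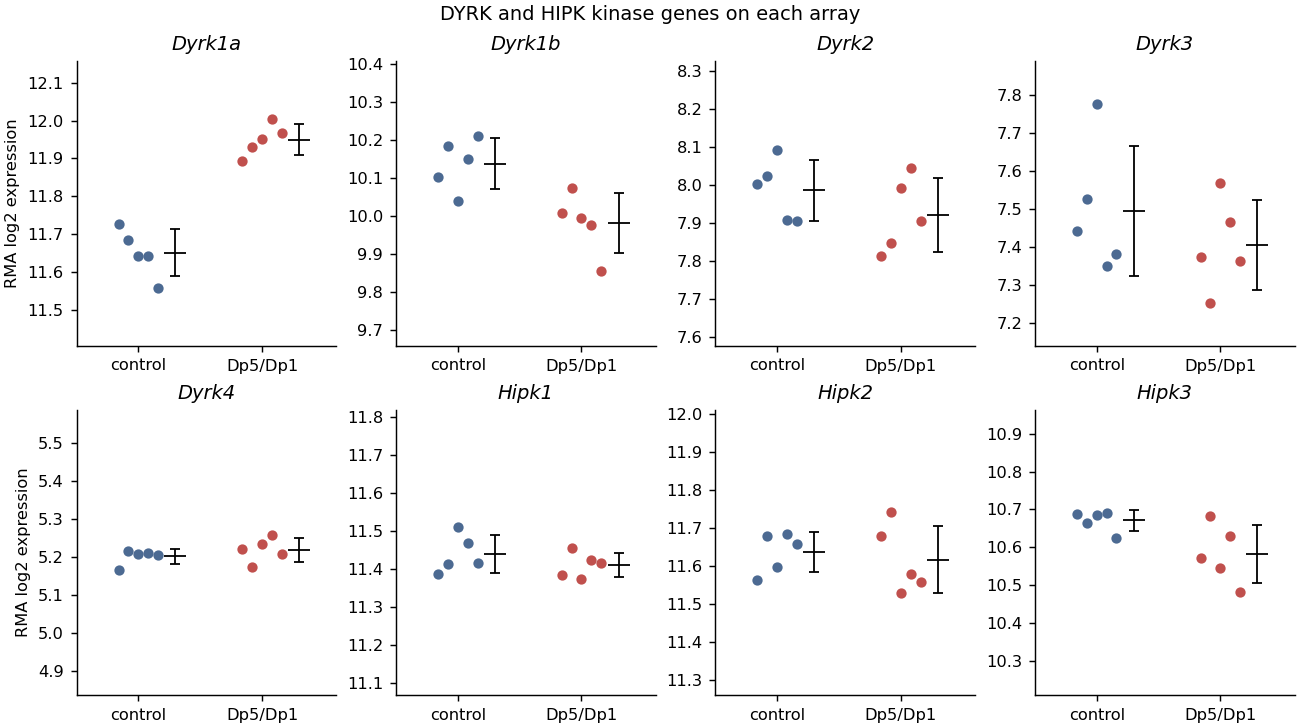
RMA log2 expression of the 8 kinase genes on each array (points, replicates 1 to 5 from left to right within a group) with the group mean and SD (bars, n = 5); all panels span the same range of log2 values. Dyrk1a separates the groups, with controls up to 11.73 and Dp5/Dp1 from 11.89, and in the other 7 panels the groups overlap.

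The other 7 members are in 2 copies in both groups, and limma called 0 of them. Their groups overlapped in 7 of 7, as they did for all but 1.08% of genes. Their differences ran from -0.16 to 0.017, with 6 lower and 1 higher mean and a median of -0.066. Over all genes the median difference was 0.0019 and 48.5% had a lower mean. By limma without adjustment, 2 of the 7, Dyrk1b and Hipk3, had a p under 0.05, against 6.06% of all genes. The 95% interval of each of the 7 lay below the difference of Dyrk1a and below log2 of 1.5. The share of all genes for which this holds was not counted. Over all genes the median absolute difference was 0.034, so this does not set the 7 apart from other genes. For a dim gene such as Dyrk4 a rise could be missed.

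Dyrk1b, the closest relative of Dyrk1a and a kinase of quiescent cells and muscle (GRCm38 chromosome 7, 28179447 to 28197910), had the largest difference of these. It was at 10.10, 10.18, 10.04, 10.15 and 10.21 in control replicates 1 to 5 and at 10.01, 10.07, 9.99, 9.97 and 9.86 in Dp5/Dp1 replicates 1 to 5. Only Dp5/Dp1 replicate 2, at 10.07, exceeded the lowest control, and replicate 5 was the lowest of all arrays. The difference was -0.16 ± 0.05 (0.897-fold, 95% interval -0.25 to -0.058, adjusted p = 0.638), so Dyrk1b did not pass over all genes. FCROS, the rank method used by the study, placed Dyrk1b in its lower tail (f-value 0.00947), as it placed 5.06% of all genes in a tail. The difference without Dp5/Dp1 replicate 2 was -0.18 and without replicate 5 -0.12.

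Dyrk2 encodes a kinase that also holds together a ubiquitin ligase complex (chromosome 10, 118855602 to 118889245). Its controls ran from 7.90 to 8.09 and its Dp5/Dp1 arrays from 7.81 to 8.04, a difference of -0.066 ± 0.052 (95% interval -0.18 to 0.048, adjusted p = 0.875). Leaving out control replicate 3 gave -0.039 and leaving out Dp5/Dp1 replicate 1 gave -0.038.

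Dyrk3 encodes a kinase that dissolves stress granules (chromosome 1, 131128441 to 131138234), and it varied most between mice of all members, with a pooled SD of 0.147. It was at 7.44, 7.52, 7.78, 7.35 and 7.38 in control replicates 1 to 5 and at 7.37, 7.25, 7.57, 7.46 and 7.36 in Dp5/Dp1 replicates 1 to 5. Replicate 3 was the highest array of Dyrk3 in both groups. The difference was -0.091 ± 0.080 (95% interval -0.27 to 0.085, adjusted p = 0.888), and -0.021 without control replicate 3, its highest array at 7.78.

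Dyrk4, a family member known mainly from testis (chromosome 6, 126876020 to 126922083), was the only member among the dimmest 40% of genes, at percentile 13.6 of the gene means. Its 10 arrays lay between 5.17 and 5.26. The difference was 0.017 ± 0.027 (95% interval -0.041 to 0.076, adjusted p = 0.941), and without Dp5/Dp1 replicate 4 it was 0.0078, without control replicate 1 0.0086 and without Dp5/Dp1 replicate 2 0.029.

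Hipk1 and Hipk2 had small differences. Hipk1 (chromosome 3, 103739815 to 103791894) ran from 11.39 to 11.51 in controls and from 11.37 to 11.46 in Dp5/Dp1, a difference of -0.029 ± 0.032 (adjusted p = 0.909), which was -0.010 without control replicate 3. Hipk2, which phosphorylates p53 after DNA damage (chromosome 6, 38687512 to 38876331), ran from 11.56 to 11.68 and from 11.53 to 11.74, a difference of -0.019 ± 0.045 (adjusted p = 0.957). It was 0.0025 without Dp5/Dp1 replicate 3, so its sign rests on 1 array.

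Hipk3 (chromosome 2, 104426481 to 104494489) was at 10.69, 10.67, 10.69, 10.69 and 10.63 in control replicates 1 to 5 and at 10.57, 10.68, 10.55, 10.63 and 10.48 in Dp5/Dp1 replicates 1 to 5. Dp5/Dp1 replicates 1, 3 and 5 lay below all controls, while replicate 2 lay among them and replicate 4 just above the lowest control. The difference was -0.088 ± 0.038 (0.941-fold, 95% interval -0.17 to -0.0045, adjusted p = 0.814). The SD was 0.03 in controls and 0.08 in Dp5/Dp1.

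Dp5/Dp1 replicate 2, the array with the highest habenula markers, was also the highest Dp5/Dp1 array for 4 members, Dyrk1b, Hipk1, Hipk2 and Hipk3, and the lowest for Dyrk3 and Dyrk4. Dp5/Dp1 replicate 5, the next highest in these markers, was the lowest Dp5/Dp1 array for Dyrk1b and Hipk3. Control replicate 3, the highest control in these markers, was the lowest control for Dyrk1b and the highest for Dyrk2, Dyrk3 and Hipk1. In the fit with both marker means as covariates, Dyrk1b was at -0.16 (adjusted p = 0.700), Hipk3 at -0.11 (adjusted p = 0.700), Hipk1 at -0.058 (adjusted p = 0.766) and Hipk2 at -0.052 (adjusted p = 0.852). No member other than Dyrk1a was called by limma in any of 22 fits, the main included, that changed the normalization, the filter, the variance model, the covariates or the arrays used, with Dyrk4 tested in 21 because the filter on dim genes removed it.

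**Figure D2:**
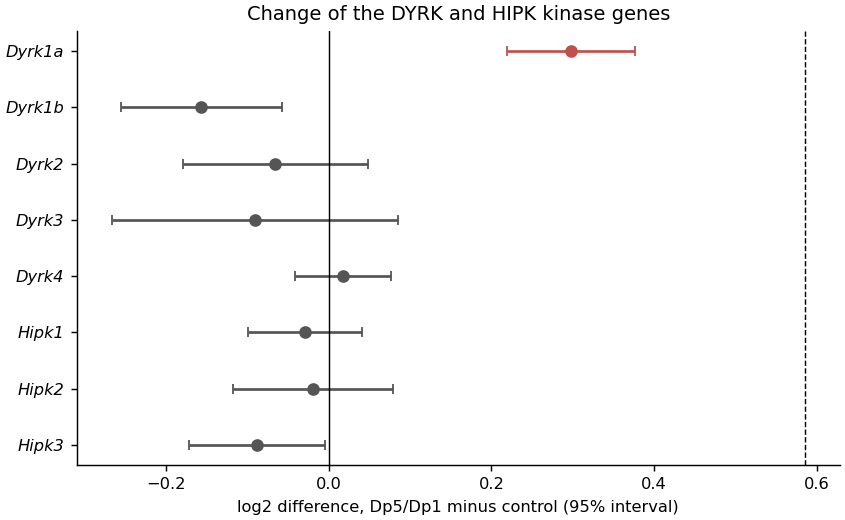
Differences (log2, Dp5/Dp1 less control) of the 8 kinase genes (points) with the 95% interval of limma (bars); the solid line marks 0, the dashed line log2 of 1.5 and red a called gene. The interval of Dyrk1a, 0.22 to 0.38, lies to the right of all 7 others.

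The difference between Dyrk1a and each relative was tested directly, from Dyrk1a minus the relative on each array. This gap widened in Dp5/Dp1 for all 7 relatives, by 0.45 ± 0.06 against Dyrk1b, 0.36 ± 0.05 against Dyrk2, 0.39 ± 0.08 against Dyrk3, 0.28 ± 0.05 against Dyrk4, 0.33 ± 0.05 against Hipk1, 0.32 ± 0.06 against Hipk2 and 0.39 ± 0.05 against Hipk3. The adjusted p of limma, over the gaps of Dyrk1a to all 19937 other genes, ran from 5.6e-05 to 0.000294. The 5 Dp5/Dp1 arrays lay above all controls in each of the 7 gaps, each with an exact permutation p of 0.00794, the smallest these arrays can give. The same test passed for 96.9% of all other genes, and 77% had gaps that did not overlap, so the 7 relatives gave the result that most genes give.

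The 2 probe sets of Dyrk1a differed in their response. The dimmer probe set was at 9.22, 9.20, 9.12, 9.20 and 9.26 in control replicates 1 to 5 and at 9.32, 9.20, 9.35, 9.29 and 9.31 in Dp5/Dp1 replicates 1 to 5. Dp5/Dp1 replicates 1, 3, 4 and 5 lay above all controls and replicate 2, at 9.20, among them. Its difference was 0.095 ± 0.036 (95% interval 0.016 to 0.17), with an adjusted p of 0.818 over the 21789 probe sets with 1 symbol, of which 0.262% were called. The brighter probe set exceeded the dimmer by 2.45 ± 0.09 in controls and by 2.65 ± 0.07 in Dp5/Dp1, a gap of 0.20 ± 0.05 (SE) in the response (exact permutation p = 0.00794). The mean of both probe sets had a difference of 0.20 (adjusted p = 0.0173). The annotation lists a shared RefSeq transcript for both, and the positions of their probes were not used here.

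**Figure D3:**
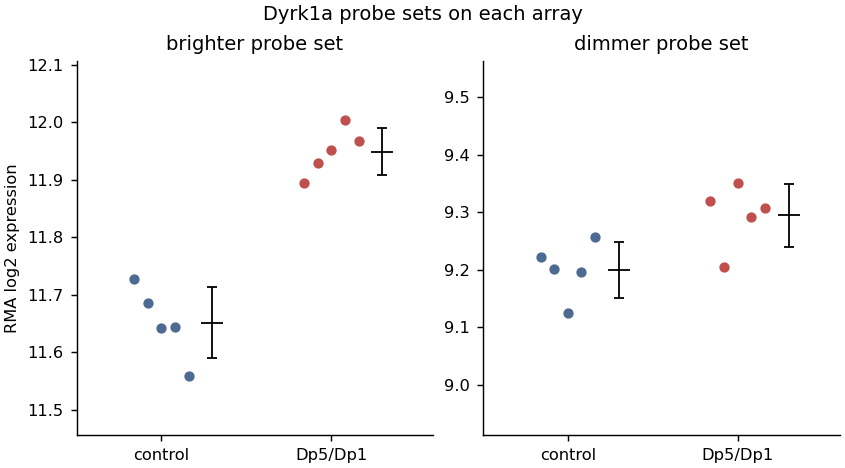
RMA log2 expression of the brighter and the dimmer Dyrk1a probe set on each array (points, replicates 1 to 5 from left to right) with the group mean and SD (bars, n = 5); both panels span the same range. The brighter probe set separates the groups, whereas Dp5/Dp1 replicate 2 of the dimmer, at 9.20, lies among the controls.

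Dyrk1a lies within the Dp1Rhr interval, at chromosome 16, 94569947 to 94695519. Of 31 measured genes between Cbr1 and Fam3b by position, 12 were called higher (38.7%) and Dyrk1a ranked 11 of these 12 by the size of its rise, which ran from 0.27 to 0.49. On the proximal side its nearest measured neighbours were Vps26c, a subunit of the endosomal retriever complex (0.43 ± 0.06, adjusted p = 0.0144), Ttc3, a ubiquitin ligase (0.27 ± 0.04, adjusted p = 0.00721), and Pigp, an enzyme subunit of GPI anchor synthesis (0.24 ± 0.06, adjusted p = 0.362). On the distal side lay the potassium channel genes Kcnj6 (0.21 ± 0.04, adjusted p = 0.160) and Kcnj15 (0.066 ± 0.043, adjusted p = 0.852) and the endothelial factor gene Erg (0.099 ± 0.034, adjusted p = 0.753). Of these 6 neighbours 2 were called, and Kcnj15 was among the dimmest 40% of genes. Erg was at percentile 43.6 of the gene means. The test of Dyrk1a against all other genes passed for 96.9% of them. In that test, the difference of Dyrk1a exceeded that of Kcnj15 by 0.23 ± 0.06 (adjusted p = 0.00181) and that of Erg by 0.20 ± 0.05 (adjusted p = 0.00123). Against the nearer 4 it did not pass, at 0.060 ± 0.067 for Pigp, 0.031 ± 0.049 for Ttc3, -0.14 ± 0.07 for Vps26c (95% interval -0.29 to 0.012) and 0.084 ± 0.058 for Kcnj6.

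**Figure D4:**
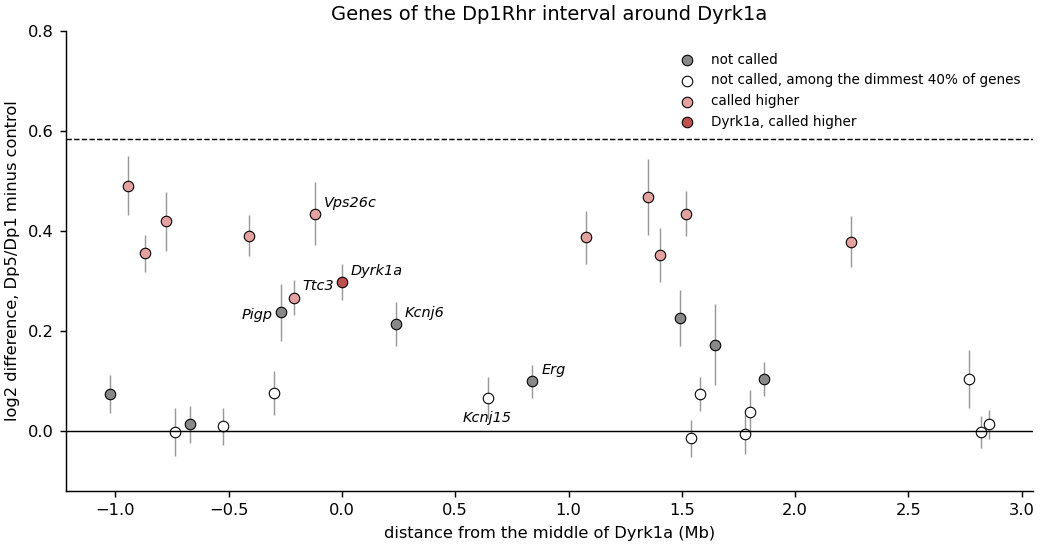
Differences (log2, Dp5/Dp1 less control; points, with SE as bars) of the 31 measured genes of the Dp1Rhr interval by distance of their middle from that of Dyrk1a in Mb; the dashed line marks log2 of 1.5 and open points genes among the dimmest 40%. Dyrk1a, at 0.30, sits near the lower edge of the called genes, which run from 0.27 to 0.49.

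The genes whose profile over the 10 arrays was most like that of Dyrk1a were themselves triplicated. The group difference was kept in these profiles, so genes with a rise of like size come near by construction. The ranking is therefore no separate evidence of a link to Dyrk1a. After each gene was centred on its mean, the root mean square difference from Dyrk1a was smallest for Ttc3 (0.0613), Synj1 (0.0629), Sod1 (0.0630), Hlcs (0.0677) and Cryzl1 (0.0684), against a median of 0.169 over all genes. Ttc3 and Hlcs lie in the Dp1Rhr interval and the other 3 in Dp5Yah. Of the nearest 20 genes, 12 lay in the intervals and 8 outside. Of these 8, limma called 1, Gpnmb, named here after its values were seen.

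A list of 59 relatives, substrates and partners of these kinases was read next, of which 54 were measured. limma called 2 of the 54 higher and 0 lower, and both are triplicated in the Dp5Yah interval (0.206% of all genes were called in either direction). Of the 52 list members outside the intervals, 0 were called. The median difference was -0.022 over the 54 and -0.024 over the 52, 15 had a higher and 39 a lower mean, where 48.5% of all genes had a lower mean. An unadjusted p under 0.05 was found for 4, against 6.06% of all genes. FCROS passed 2 higher and 3 lower, against 5.06% of all genes.

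The 2 called genes encode proteins that DYRK1A phosphorylates. Rcan1, a calcineurin regulator, was at 9.10, 9.18, 9.31, 9.21 and 9.20 in control replicates 1 to 5 and at 9.67, 9.65, 9.69, 9.63 and 9.67 in Dp5/Dp1 replicates 1 to 5 (0.46 ± 0.04, adjusted p = 0.000186). Synj1, a lipid phosphatase that uncoats synaptic vesicles, was at 11.59, 11.71, 11.56, 11.55 and 11.55 and at 11.90, 11.99, 11.91, 12.05 and 11.89 in the same order (0.36 ± 0.04, adjusted p = 0.0034). In both genes the groups did not overlap, so the kinase gene and these substrate genes were higher on the same 5 arrays. All of them are triplicated in these mice, so their shared rise is no separate evidence of a link between them.

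Other substrates and partners did not pass. Among neuronal and synaptic substrates, Map1b, a microtubule-associated protein gene, was at -0.047 ± 0.032, and the lowest of the 8 measured members was at -0.077. Of the NFAT and GSK3 genes, which receive signals that DYRK1A opposes or primes, Nfatc3 was at -0.083 ± 0.068 and was passed as lower by FCROS. The 4 cell cycle substrates had lower means, with Ccnd1 at -0.087 ± 0.040 (adjusted p = 0.824) and Ccnd2 at -0.18 ± 0.09 (adjusted p = 0.824), both genes of D-type cyclins that DYRK kinases mark for degradation. Ccnd2 was also passed as lower by FCROS with control replicate 3 highest, at 10.74.

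The 4 splicing factor substrates also had lower means. Srsf1, a splicing activator, was at 9.30, 9.29, 9.27, 9.30 and 9.36 in control replicates 1 to 5 and at 9.23, 9.25, 8.97, 9.23 and 9.17 in Dp5/Dp1 replicates 1 to 5. All Dp5/Dp1 arrays of Srsf1 lay below all controls, with replicate 3 lowest, but the difference did not pass (-0.13 ± 0.05, adjusted p = 0.806). With Rcan1 and Synj1, Srsf1 was 1 of 3 among the 54 genes whose groups did not overlap, against 1.08% of all genes. Srsf2 was at -0.063 ± 0.055.

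In the DREAM complex, which represses cell cycle genes in quiescent cells and is assembled after DYRK1A phosphorylates LIN52, Lin52 was at -0.051 ± 0.040, and Dcaf7, the scaffold that DYRK1A and HIPK2 bind, at -0.076 ± 0.044 (adjusted p = 0.841). The 12 members of this list ran from -0.076 to 0.039. Of the 8 related kinases measured, 5 had a higher and 3 a lower mean, with a median of 0.0087. Those with the lowest p were both lower in mean, and Prpf4b was at -0.11 ± 0.05 (adjusted p = 0.824) and Clk4, a kinase of splicing factors, at -0.22 ± 0.12 (adjusted p = 0.832). Clk4 was passed as lower by FCROS, and its Dp5/Dp1 arrays ran from 8.49 to 9.17 around controls from 8.86 to 9.26. Of the HIPK partners, Axin1 was at -0.10 ± 0.04 (adjusted p = 0.812) and Mdm2 at -0.11 ± 0.07 (adjusted p = 0.845), while the DYRK2 and DYRK3 partners Dcaf1 (-0.031 ± 0.054) and Katna1 (-0.014 ± 0.030) had differences below 1 SE.

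**Figure D5:**
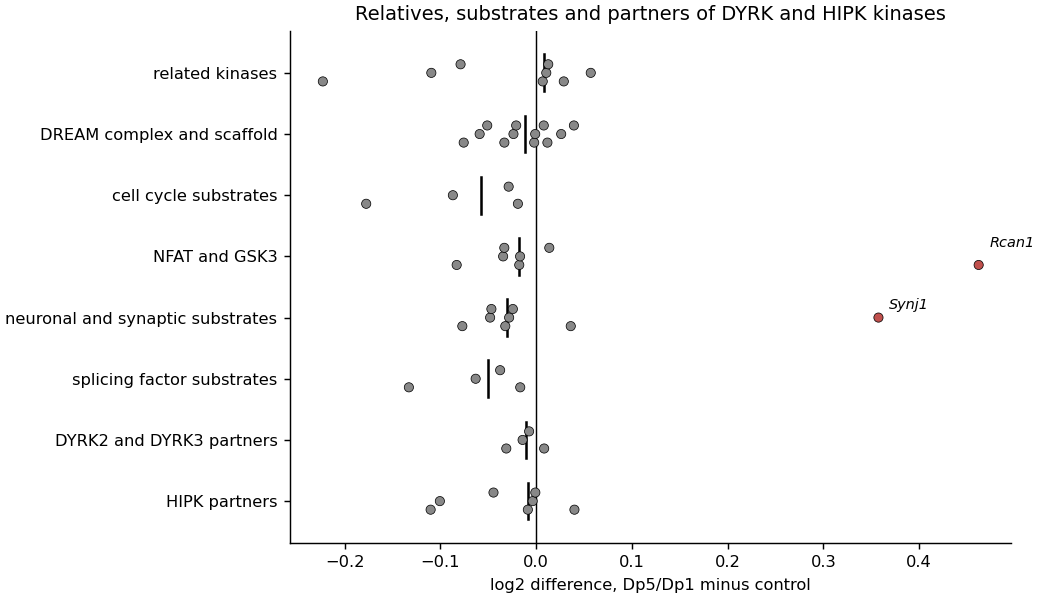
Differences (log2, Dp5/Dp1 less control) of the 54 measured relatives, substrates and partners of DYRK and HIPK kinases, by list (points, spread vertically for legibility; black ticks give the list median and red marks called genes). Rcan1 at 0.46 and Synj1 at 0.36 stand apart, and the other 52 lie between -0.22 and 0.057.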

How the data were processed

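Total RNA of both hippocampi of each mouse was hybridised by the authors to an Affymetrix Mouse Gene 1.0 ST array. They normalized the arrays by RMA and deposited log2 expression values. The submitters' notes also name limma and mm10, without versions. Of 35556 probe sets, 21789 had 1 gene symbol, giving 19938 genes, each read from its brightest probe set. Positions are those of RefSeq on GRCm38, the assembly of mm10. The groups were compared by a limma fit without covariates (version 3.58.1, R 4.3.3), and two-sided p-values were adjusted over all genes by Benjamini-Hochberg. Single values were compared over the 252 possible assignments of arrays (exact permutation test, two-sided). The number of arrays limits the precision, and each array is a separate mouse per the labels. FCROS was rewritten from its description (trim 0.25, tails of 0.025) so it need not match the package in detail. Its f-value sets each gene against the spread of all genes. The share of genes that FCROS passes is therefore largely fixed by the tails and is no count of changed genes. The tests were first run on simulated data. The members and gene lists were chosen with earlier results of these data known. Genes named were the 8 members, each list's called genes and its 2 lowest unadjusted p, the 3 measured neighbours of Dyrk1a on each side and the 5 nearest profiles. Of the listed genes, 5 were not analysed here.

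Alternatives changed the filter (dimmest 40% of genes removed), the scaling (quantiles renewed, or arrays centred on genes that are not triplicated), the probe sets (averaged, or each tested), the variance model (intensity trend with robust fit, or weighted arrays), the design (replicate block, marker covariates), the arrays used and the method (FCROS).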

Additional observations from a re-analysis of the deposited data

Results flagged for a closer look

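Dyrk4 in control replicate 1, at 5.17, lay apart from the other 4 controls, which spanned 5.21 to 5.22. Of the 18 groups of 5 values examined for a far sample (8 genes and the dimmer Dyrk1a probe set in both groups), this was the only 1 found, and chance alone gives about 1 in 20. The gap is 0.04 on the log2 scale.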

How the results depend on the processing

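Dyrk1a kept its direction in all 22 alternatives (0.20 to 0.32) and its call in 20. Where every probe set was tested, this counts the brighter, and the dimmer was not called (adjusted p = 0.818). Dyrk1a lost the call without Dp5/Dp1 replicates 2 and 5 (0.30, adjusted p = 0.0548) and with the replicate number as a block (0.30, adjusted p = 0.0938). In these alternatives 0 members were called. Both had fewer arrays or residual degrees of freedom, and the cause was not tested. The labels do not say whether replicate numbers pair the samples. Same-numbered arrays correlated between -0.348 and 0.288 in their deviations, and 1 of 5 controls correlated best with its own number. These correlations cannot exclude a pairing. FCROS passed 2 members, Dyrk1a and Dyrk1b, and 5 genes of the pathway lists, where limma called 2. Over all genes FCROS passed 1008, a number that its tails largely fix. Genes called by limma numbered 41 in all, 21 without Dp5/Dp1 replicates 2 and 5, 27 when both marker means were covariates and 26 with the replicate block. When 1 array was left out, these calls ran from 29 to 39 in all genes, stayed at 1 among the members and at 2 in the pathway lists, the difference of Dyrk1a ran from 0.27 to 0.32 and the gap between its probe sets from 0.17 to 0.22. Hipk2 ran from -0.050 to 0.0025 and changed sign without Dp5/Dp1 replicate 3. The gap between Dyrk1a and a relative widened in Dp5/Dp1 for all 7 relatives in each of the 15 alternatives run for it, the replicate block included. Dim probe sets, Dyrk4 above all, limit what could be seen.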
